A study of Homo sapiens with 3 samples.

Results

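The 10 genes described here encode the core of transforming growth factor β (TGF-β) signalling and its SMAD proteins. They are the ligand TGFB1, the receptors TGFBR1 and TGFBR2, the receptor-regulated SMAD2 and SMAD3, the common partner SMAD4, the inhibitory SMAD6 and SMAD7, and the nuclear repressors SKI and SKIL. They were chosen by name, with earlier results of these data known, and make up 10 of the 20163 protein-coding genes of the annotation. Every peak over one of these genes, or within 50 kb of it, was taken as a peak of that gene.

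Chromatin immunoprecipitation followed by sequencing (ChIP-seq) had been applied to untreated H2087 cells, a cell line established from a human lung adenocarcinoma. One antibody was against histone H3 acetylated at lysine 27 (H3K27ac), which is commonly found at active promoters and enhancers. The other was against histone H3 trimethylated at lysine 4 (H3K4me3), which is commonly found at active promoters. Each mark had 1 library (n = 1) and 1 peak list, and an input library was not analysed here. With no replicate, no value has an error between libraries and no test was made. The intervals given with shares are exact Clopper-Pearson 95% intervals, and reflect only the error of counting, with each peak treated as independent of its neighbours.

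In this pathway the ligand is secreted in a latent form, and once released it brings TGFBR2 and TGFBR1 together at the cell surface. TGFBR1 then phosphorylates SMAD2 and SMAD3, which bind SMAD4 and enter the nucleus to regulate transcription. SMAD6 and SMAD7 act against the receptors, SKI and SKIL repress the nuclear SMAD complexes, and SMAD7 and SKIL are known targets of the pathway. In epithelial cancers the pathway is known both for restraining growth and, at later stages, for promoting invasion, and SMAD4 and TGFBR2 are known to be inactivated in some carcinomas.

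The H3K27ac list held 24096 peaks with a median width of 284 bp, and the H3K4me3 list 18585 peaks with a median width of 305 bp. The lists give no read counts, so the depth is unknown, and a missing peak may also mean too few reads. The strength of a peak is given by the unlabelled score of the lists, read here as −log10 q, where q is the false discovery rate at its summit. The median was 2.65 for H3K27ac and 2.97 for H3K4me3, and values were compared only within a list. Of 10 genes that mark lung epithelium and lung adenocarcinoma, 8 had H3K4me3 and 7 had H3K27ac within 1 kb of a transcript start. Over all protein-coding genes the shares were 45.4% and 30.7%. Both marks were found there at the lineage factor NKX2-1 and at the epithelial genes EPCAM, CDH1, KRT7, KRT8, KRT18 and KRT19. The other lung genes were less marked. NAPSA had H3K4me3 at a start but no H3K27ac within 50 kb. The surfactant gene SFTPB had neither mark at a start, although both lay within 50 kb, and SFTPC had neither mark within 50 kb. Of 4 mesenchymal genes, ZEB1 had H3K4me3 at a start and no gene had H3K27ac there, although VIM and FN1 had H3K27ac within 50 kb. The squamous genes TP63 and KRT5 had neither mark at a start, but both had H3K27ac within 50 kb, and TP63 had 2 H3K27ac peaks over the gene. The blood cell gene PTPRC had neither mark within 50 kb.

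The peaks of the 10 genes were concentrated at SMAD3 and SKI. Counted once each, 73 H3K27ac peaks lay over the 10 genes or within 50 kb, of which 35 belonged to SMAD3 and 27 to SKI, together 84.9%. The other 8 genes shared 11 peaks, which were 5 at SMAD6, 3 at SKIL, 2 at SMAD7 and 1 at TGFBR2. For H3K4me3 there were 28 peaks, with 14 at SMAD3, 8 at SKI, 2 each at SMAD6 and SKIL, and 1 each at TGFB1 and TGFBR2. SMAD2, SMAD4 and TGFBR1 had no peak of either mark in this window. Over the gene bodies alone, the counts were 53 H3K27ac and 19 H3K4me3 peaks.

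**Figure D1:**
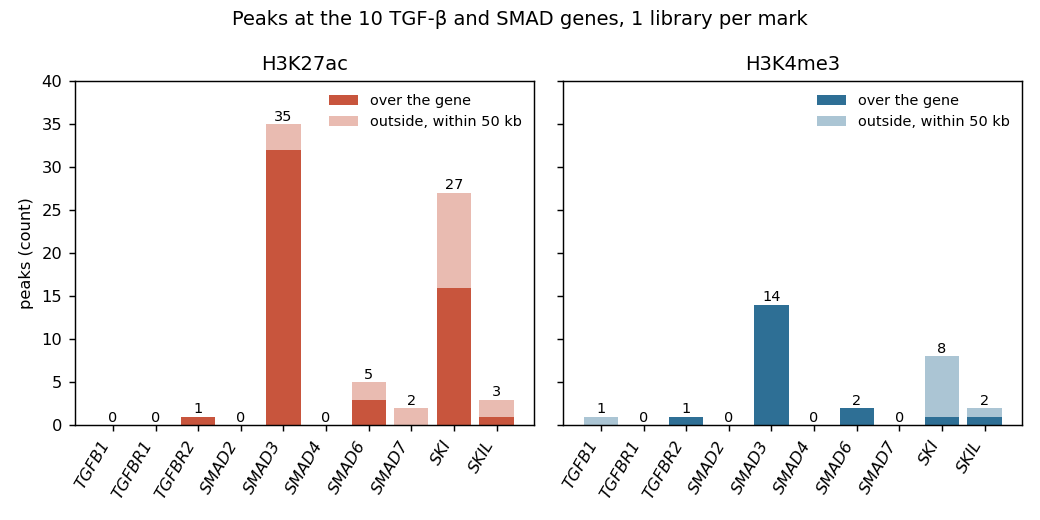
Number of H3K27ac peaks (left) and H3K4me3 peaks (right) at each of the 10 genes, 1 library per mark. Dark bars count peaks over the gene and light bars peaks outside it within 50 kb, with the sum above each bar, which reached 35 H3K27ac peaks at SMAD3 and was 0 for both marks at SMAD2, SMAD4 and TGFBR1.

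The share of the 10 genes with a peak was close to that of other genes, while the number of peaks at SMAD3 and SKI was not. At least 1 H3K27ac peak lay over 5 of the 10 genes (SMAD3, SMAD6, TGFBR2, SKI and SKIL), against 36.8% of all protein-coding genes. The same 5 genes had at least 1 H3K4me3 peak, against 46.4%. With the flanks of 50 kb, 6 of 10 genes had H3K27ac and 6 of 10 had H3K4me3, against 63.9% and 70.2%. Neither mark was present in that window at 3 of 10 genes, against 23.6%. The median number of H3K27ac peaks within 50 kb was 1.5 over the 10 genes and 1 over all protein-coding genes, and for H3K4me3 it was 1 and 2.

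The share of marked starts was near that of all genes. Within 1 kb of the outer 5′ end of the gene, H3K4me3 was found at 3 of 10 genes (SMAD6, TGFBR2 and SKIL) against 38.2% of protein-coding genes. H3K27ac was found at 2 of 10 (SKI and SKIL) against 23.6%. SKIL was the 1 gene of the 10 with both marks at its outer start, against 18.6%. At the start of the canonical transcript, the representative transcript chosen by the annotation, H3K4me3 was found at 4 of 10 genes (SMAD3, SMAD6, TGFBR2 and SKIL, against 41.3%) and H3K27ac at 2 of 10 (SMAD3 and SKIL, against 25.2%). With the start of any annotated transcript, 4 of 10 genes had H3K4me3 (the same 4, against 45.4%) and 4 of 10 had H3K27ac (SMAD3, SMAD6, SKI and SKIL, against 30.7%). SMAD3 changed between these definitions because its outer start lay 1839 bp upstream of its canonical start.

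Sequences of some peaks near to and far from gene starts are shown as examples. The peak at the SKI start is not among them. Each is the 300 bases around the centre of an H3K27ac peak, on the plus strand of GRCh37 (hg19), with every CG dinucleotide in capitals. The SMAD3 peak, at chr15:67358564-67358863, lay over coding exon 1 and the start of intron 1, and was the strongest of the 73. The SKIL peak, at chr3:170075668-170075967, lay in intron 1 next to transcript starts. The SKI peak, at chr1:2221278-2221577, lay deep in intron 1 and was the strongest of that gene. The TGFBR2 peak, at chr3:30700335-30700634 in intron 3, and the SMAD7 peak, at chr18:46505721-46506020 upstream of the gene, stand for genes with no H3K27ac at a start.
SMAD3 exon 1: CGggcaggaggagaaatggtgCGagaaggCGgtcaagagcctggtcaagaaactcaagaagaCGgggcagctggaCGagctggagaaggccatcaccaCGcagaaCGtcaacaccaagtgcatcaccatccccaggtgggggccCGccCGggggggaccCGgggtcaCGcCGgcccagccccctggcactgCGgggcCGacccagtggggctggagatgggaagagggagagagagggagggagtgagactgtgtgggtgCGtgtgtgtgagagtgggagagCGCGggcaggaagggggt
SKIL intron 1: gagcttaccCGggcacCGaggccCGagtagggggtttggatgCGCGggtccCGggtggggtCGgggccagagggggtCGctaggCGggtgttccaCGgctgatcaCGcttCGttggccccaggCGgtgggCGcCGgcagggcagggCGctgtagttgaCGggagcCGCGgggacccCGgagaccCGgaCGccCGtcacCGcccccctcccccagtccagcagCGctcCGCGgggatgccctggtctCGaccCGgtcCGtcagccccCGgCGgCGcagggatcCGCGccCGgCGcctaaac
SKI intron 1: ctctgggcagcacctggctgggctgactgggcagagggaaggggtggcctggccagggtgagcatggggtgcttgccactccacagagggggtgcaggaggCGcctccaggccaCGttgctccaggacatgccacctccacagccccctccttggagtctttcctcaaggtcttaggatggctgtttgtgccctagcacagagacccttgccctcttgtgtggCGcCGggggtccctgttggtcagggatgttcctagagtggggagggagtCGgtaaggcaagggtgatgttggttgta
TGFBR2 intron 3: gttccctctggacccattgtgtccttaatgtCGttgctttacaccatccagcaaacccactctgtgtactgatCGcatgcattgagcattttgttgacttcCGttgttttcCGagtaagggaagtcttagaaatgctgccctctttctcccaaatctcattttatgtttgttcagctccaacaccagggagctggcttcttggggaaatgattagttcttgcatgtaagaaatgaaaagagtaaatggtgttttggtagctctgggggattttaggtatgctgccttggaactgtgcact
SMAD7 upstream: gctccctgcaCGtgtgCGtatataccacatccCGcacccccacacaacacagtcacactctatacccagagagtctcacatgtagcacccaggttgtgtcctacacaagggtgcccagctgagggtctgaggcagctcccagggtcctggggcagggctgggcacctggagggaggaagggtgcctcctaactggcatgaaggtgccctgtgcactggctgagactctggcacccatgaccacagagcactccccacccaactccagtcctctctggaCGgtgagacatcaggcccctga

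The windows differed in CG dinucleotides and in G and C content. The SKIL window held 37 of them at 75.7% G and C, and the SMAD3 window 17 at 66.7%. The SKI window held 5 at 63.0%, the SMAD7 window 4 at 61.0% and the TGFBR2 window 4 at 44.3%. Of these 5 peaks, those at SMAD3, SKIL and SKI overlapped an H3K4me3 peak, and those at TGFBR2 and SMAD7 did not. Windows of other distal H3K27ac peaks held more CG dinucleotides than the distal ones shown here. That of an intron 1 peak of SMAD3, at chr15:67413526-67413825, held 15 at 69.0% G and C. The window of the strongest H3K27ac peak of SMAD6, in intron 3, held 9 at 66.3%.

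TGFB1 (chr19:41807492-41859827, minus strand, 52336 bp), which encodes the ligand, had no peak of either mark over the gene. Its single peak within 50 kb was an H3K4me3 peak at chr19:41771033-41771341, 36.2 kb beyond the 3′ end, with a −log10 q of 2.23. That peak lay over HNRNPUL1, 2.63 kb from the start of that gene. The H3K27ac peak nearest to the TGFB1 start was 532 kb away. The absence at outer starts extended over the neighbourhood. Within 1 Mb 66 other protein-coding genes start, and none of these 66 outer starts had H3K27ac or H3K4me3 within 1 kb. Among the 4203 protein-coding genes with at least 50 such neighbours, 153 (3.64%) had no marked neighbour. The 153 include TGFB1 and may include other genes of the same neighbourhood, whose windows overlap. They are therefore a count of genes and not of separate regions. The nearest marked starts were those of TTC9B, 1136 kb away, and PHLDB3, 2149 kb away on the other side, with 89 protein-coding starts and only 4 H3K27ac and 5 H3K4me3 peaks between them. This span was measured after the count at TGFB1 had been seen. Over the whole of chromosome 19, 18.8% of 1480 starts had H3K27ac and 30.9% had H3K4me3. All of these starts are outer starts of genes. A mark at another transcript start or further inside a gene, as over HNRNPUL1, was not counted.

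TGFBR1 (chr9:101866320-101916474, plus strand, 50155 bp), the receptor kinase that phosphorylates SMAD2 and SMAD3, had no peak over the gene or within 50 kb. The nearest H3K27ac peak was 117 kb and the nearest H3K4me3 peak 119 kb from its outer start. A window of 100 kb around the gene contained 1 peak of each mark. Of 13 other protein-coding starts within 1 Mb, 4 had H3K4me3 and 2 had H3K27ac, so the absence at TGFBR1 was not shared by all of its neighbours.

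TGFBR2 (chr3:30648093-30735634, plus strand, 87542 bp), the receptor that binds the ligand, had 1 peak of each mark. The H3K4me3 peak at chr3:30648677-30649177 lay in intron 1, 584 bp from the start, and was 501 bp wide. With a −log10 q of 1.34 it was among the weakest of its list, of which 0.748% lay below it. The H3K27ac peak at chr3:30700300-30700669 lay in intron 3, 52.2 kb from the start, with a −log10 q of 2.82, above 52.9% of its list. Each mark was therefore present at TGFBR2, without H3K27ac at the promoter. The intron 3 peak was the sole H3K27ac peak within 1 Mb of the gene start, against a median of 24 over all protein-coding genes. Only 2 other protein-coding genes start within that distance of TGFBR2, and the median was not adjusted for the number of nearby genes.

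The receptor-regulated SMADs differed in these lists, with no peak at SMAD2 and the largest number of the 10 genes at SMAD3. SMAD2 (chr18:45335328-45457517, minus strand, 122190 bp) is close to SMAD3 in length. The H3K27ac peak nearest to its start was 945 kb away and the nearest H3K4me3 peak 608 kb. Of the 1976 genes of 0.75 to 1.33 times its length, 51.1% likewise had no H3K27ac peak over the gene and 39.9% no H3K4me3 peak. Within 1 Mb of the SMAD2 start there was 1 peak of each mark, against medians of 24 H3K27ac and 19 H3K4me3 peaks over all protein-coding genes. These medians were not adjusted for the number of nearby genes, and 9 other protein-coding genes start within that distance of SMAD2.

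SMAD3 (chr15:67356101-67487511, plus strand, 131411 bp) had 32 H3K27ac peaks over the gene, the third largest number of all protein-coding genes. PARD3, a cell polarity gene, had 75 over 705766 bp, and RAD51B, a DNA repair gene, had 33 over 910440 bp, both much longer than SMAD3. Among the 1903 genes of 0.75 to 1.33 times its length none had more, the class median was 0, and 50.9% had no peak. The peaks covered 12106 bp, or 9.21% of the gene, at 2.44 peaks per 10 kb. By that density 755 genes had as many or more. With the upper part of the list, at or above the median −log10 q, SMAD3 kept 17 peaks and 6 genes had more, and with peaks within 1 kb merged it had 23 and 4 genes had more.

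**Figure D2:**
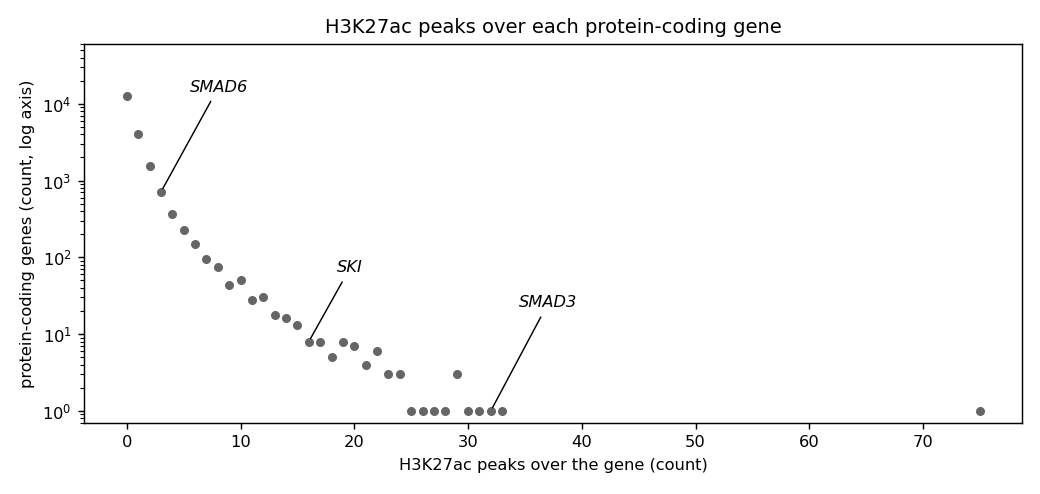
Number of protein-coding genes (log axis) by the number of H3K27ac peaks over the gene, 1 point per count that occurred, 1 library. The positions of SMAD6 with 3 peaks, SKI with 16 and SMAD3 with 32 are labelled, and the 2 points to the right of SMAD3 are RAD51B with 33 and PARD3 with 75.

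The H3K27ac peaks of SMAD3 were mostly in intron 1. This intron contained 29 of the 32, another 2 lay in intron 5, and 1 covered part of exon 1. Intron 1 takes up much of the gene, with peak centres from 4.65 to 99.2 kb downstream of the outer start. The counts were not set against intron length. The strongest was the exon 1 peak at chr15:67358551-67358875, shown above, with a −log10 q of 8.38, above 99.1% of the list. Its centre lay 0.773 kb downstream of the canonical start and 2.61 kb downstream of the outer start. A further 4 peaks, all in intron 1, reached a −log10 q of 5, and these were 5.98 at chr15:67361873-67362564, 5.23 at chr15:67369104-67369341, and 5.12 at both chr15:67413501-67413850 and chr15:67441733-67442447. The last of these was also the widest at 715 bp. Over all 35 peaks, the −log10 q ranged from 1.39 to 8.38 with a median of 2.82, and 19 were at or above the median of the list. The 3 peaks outside the gene lay 16.2, 28.9 and 39.5 kb upstream, with −log10 q of 3.35, 2.64 and 4.32.

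The gaps between neighbouring H3K27ac peaks over SMAD3 had a median of 1.95 kb and ranged from 0.202 to 12.7 kb. When peaks no more than 10 kb apart were joined, 29 of them formed 1 stitched region at chr15:67358551-67442447. It was 83.9 kb long with 10.6 kb under peaks, which ranked 18 of 4606 stitched regions by length under peaks. It also contained all 14 H3K4me3 peaks of SMAD3. Regions with at least as many peaks numbered 7, that of SMAD3 included.

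The H3K4me3 peaks of SMAD3 were numerous but weak. There were 14 over the gene, and none in the flanks. No gene of its length class had more, and the class median was 1. In intron 1 there were 13, and the other, at chr15:67358683-67359027, covered part of exon 1. The −log10 q ranged from 1.34 to 3.76 with a median of 2.25, and 3 of the 14 were at or above the median of the list. The exon 1 peak had a −log10 q of 2.26, above 31.6% of its list, although the H3K27ac peak that it overlapped was in the uppermost part of its own list. Of the 14 H3K4me3 peaks 10 overlapped H3K27ac, and of the 35 H3K27ac peaks 10 overlapped H3K4me3. Among the 18 annotated transcript starts of SMAD3, 5 had H3K27ac and 5 had H3K4me3 within 1 kb.

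**Figure D3:**
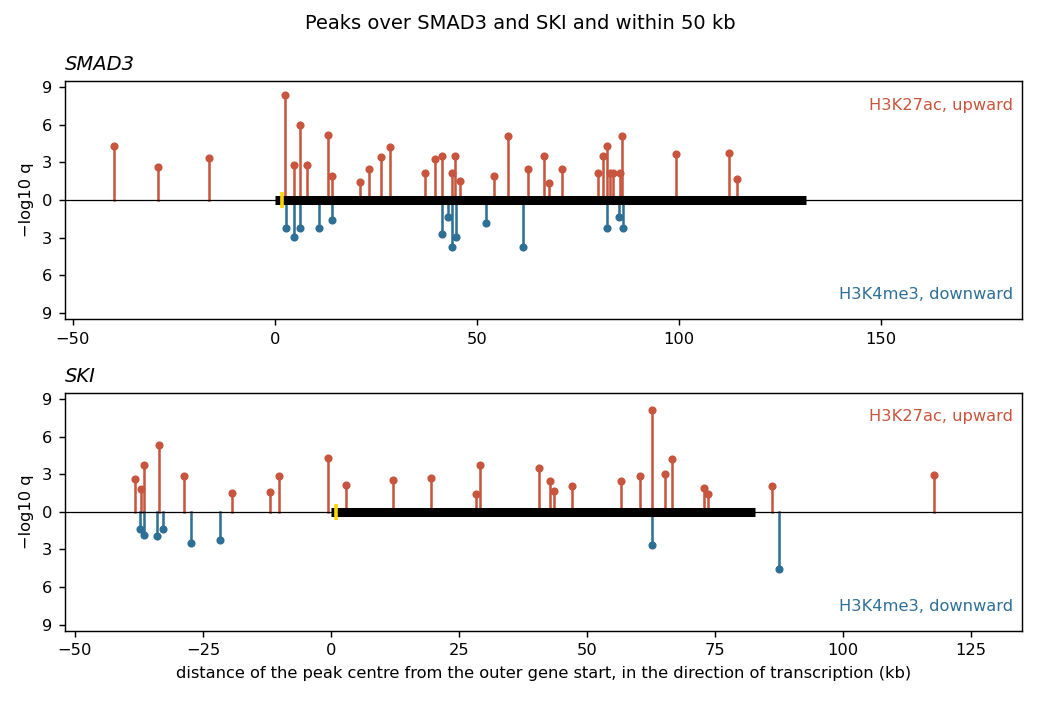
Position and −log10 q of every peak over SMAD3 (upper panel) and SKI (lower panel) and within 50 kb, by distance of the peak centre from the outer gene start in kb in the direction of transcription. H3K27ac points upward and H3K4me3 downward, the black bar is the gene and the yellow tick the canonical start. The strongest H3K27ac peak of SMAD3, with a −log10 q of 8.38, lies 2.61 kb into the gene, and that of SKI, with 8.12, lies 62.6 kb into the gene.

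SMAD4 (chr18:48554898-48611415, plus strand, 56518 bp), the common partner of the receptor-regulated SMADs, had no peak within 50 kb, and the nearest peak of each mark was 747 kb from its outer start. SMAD2, SMAD7 and SMAD4 all lie on chromosome 18, where 82 H3K27ac and 68 H3K4me3 peaks were listed. Of its 266 protein-coding starts, 6.02% had H3K27ac and 10.9% had H3K4me3, against 23.6% and 38.2% over all chromosomes. Of the 11 other starts within 1 Mb of SMAD4, 1 had H3K27ac and 1 had H3K4me3, and of the 9 around SMAD2 none had H3K27ac and 1 had H3K4me3. For these 3 genes, a lack of peaks at the gene and a lack of peaks along the chromosome cannot be told apart.

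SMAD6 (chr15:66994574-67075187, plus strand, 80614 bp), an inhibitory SMAD acting mainly on the bone morphogenetic protein branch, had 5 H3K27ac and 2 H3K4me3 peaks. Its H3K4me3 peaks lay in exon 1, at chr15:66995222-66995550 in the untranslated part with a −log10 q of 4.63, above 81.2% of the list, and at chr15:66995830-66996045 in the coding part with 2.24. The former was the strongest H3K4me3 peak of the 10 genes. H3K27ac flanked them, with a peak 1.25 kb upstream of the gene (chr15:66992920-66993329, −log10 q 2.57) and another at the end of exon 1 (chr15:66996369-66996579, 2.78). The strongest and widest H3K27ac peak, at chr15:67055414-67055953, lay in intron 3 with a −log10 q of 3.95 and a width of 540 bp. A further intron 3 peak had a −log10 q of 1.89, and a peak 20.7 kb beyond the gene had 2.45. No peaks of the 2 marks overlapped at SMAD6, although the marks lay beside each other at its start.

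SMAD7 (chr18:46446223-46477335, minus strand, 31113 bp), the inhibitory SMAD that acts on TGFBR1, had 2 H3K27ac peaks in its flanks and no H3K4me3. The H3K27ac peak at chr18:46505745-46505995, shown above, lay 28.4 kb upstream of the gene and was 251 bp wide. The other, at chr18:46402920-46403128, lay 43.1 kb beyond the 3′ end and was 209 bp wide. Both had a −log10 q of 2.82. For each the nearest protein-coding start was that of SMAD7, and the nearest H3K4me3 peak to that start was 411 kb away.

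SKI (chr1:2158827-2241652, plus strand, 82826 bp), a repressor that binds SMAD complexes, came after SMAD3 with 16 H3K27ac peaks over the gene and 11 in the flanks. As many or more over the gene were found at 64 protein-coding genes, SKI included, and of the 2429 genes of like length 6 had more. The 16 peaks lay in intron 1 and covered 5453 bp, or 6.58% of the gene. The strongest, at chr1:2221246-2221609, had a −log10 q of 8.12, above 99.0% of the list, and lay 62.6 kb from the outer start. It overlapped the sole H3K4me3 peak over the gene, at chr1:2221318-2221607 with a −log10 q of 2.63. At the start itself, an H3K27ac peak at chr1:2158093-2158505 with a −log10 q of 4.29 lay 322 bp upstream of the outer start. The H3K4me3 peak nearest to that start was 21.5 kb away. SKI therefore differed from SMAD3 in having many H3K27ac peaks over the gene with a single H3K4me3 peak.

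Much of the flanking signal of SKI lay over a neighbouring gene. Of its 11 flanking H3K27ac peaks, 8 were nearest to the start of FAAP20, a DNA repair gene, 2 to that of MORN1 and 1 to that of SKI. The widest peak of the 10 genes, 1218 bp at chr1:2124721-2125938 with a −log10 q of 5.32, lay over FAAP20. Of the 8 H3K4me3 peaks, 6 lay upstream over FAAP20, and the strongest, at chr1:2246117-2246554 with a −log10 q of 4.60, lay 4.46 kb beyond the 3′ end of SKI. Joined within 10 kb, the H3K27ac peaks formed 2 stitched regions touching SKI, of 14 peaks (chr1:2120482-2188134, 4.84 kb under peaks, rank 122) and 11 peaks (chr1:2199329-2232701, 4.23 kb, rank 154).

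SKIL (chr3:170075130-170114623, plus strand, 39494 bp), which encodes a related repressor, had a compact promoter with both marks. The H3K4me3 peak at chr3:170075561-170076410 was the widest H3K4me3 peak of the 10 genes at 850 bp, with 2 summits and a −log10 q of 4.60, above 78.4% of the list. The whole H3K27ac peak at chr3:170075661-170075973, with a −log10 q of 3.55, lay inside it. A second H3K4me3 peak, at chr3:170074021-170074392 with a −log10 q of 4.47, lay 738 bp upstream of the outer start. Of the 8 transcript starts of SKIL, 5 had H3K27ac and 5 had H3K4me3 within 1 kb. The other 2 H3K27ac peaks were weaker, with a −log10 q of 1.89 at 23.4 kb upstream and 2.16 at 29986 bp downstream, the latter over CLDN11, a tight junction gene.

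The wider regions of the 10 genes differed as much as the genes. Within 1 Mb of the outer start, H3K27ac peaks numbered 118 at SKI, 61 at SMAD6, 59 at SMAD3 and 19 at SKIL. The other genes had 5 at TGFBR1, 3 at SMAD7, 2 at TGFB1, and 1 each at SMAD2, SMAD4 and TGFBR2. SMAD3 and SMAD6 are neighbours on chromosome 15 and their regions overlap, so many of these peaks were counted for both. Over all protein-coding genes the interquartile range was 7 to 50, so 6 of the 10 genes lay below it and 3 above. For H3K4me3, the interquartile range was 8 to 38, and the same 6 genes lay below it with 1 to 6 peaks. Around SKI, 24 of 49 other starts had H3K27ac, and around SMAD3 5 of 15. The counts were not adjusted for the number of genes nearby. Other protein-coding starts within 1 Mb numbered 2 at TGFBR2, 9 at SMAD2 and SMAD7, 11 at SMAD4, 13 at TGFBR1 and 66 at TGFB1. Whether the regional level bears on the peaks of the genes was not tested.

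**Figure D4:**
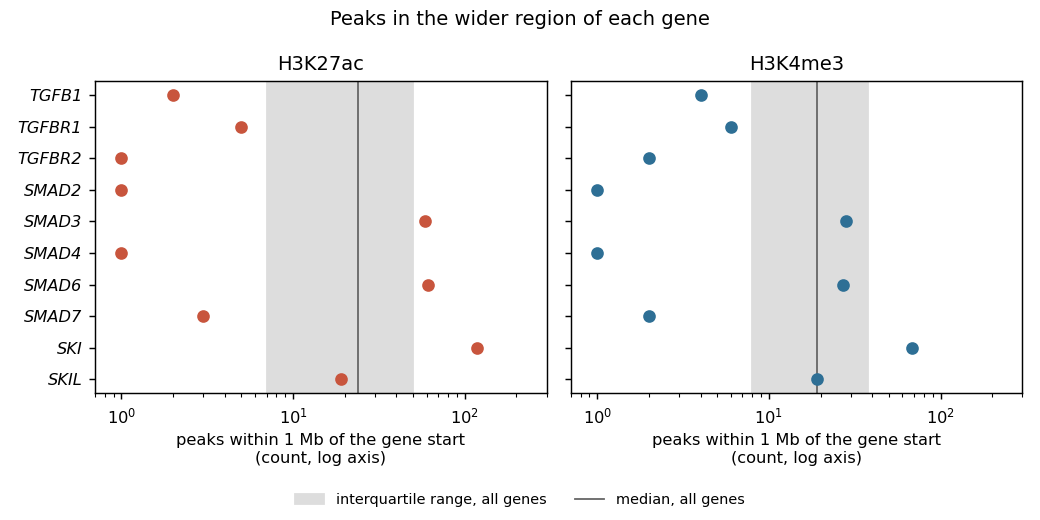
Number of H3K27ac peaks (left) and H3K4me3 peaks (right) within 1 Mb of the outer start of each of the 10 genes, on a log axis. The line is the median over all protein-coding genes (24 and 19) and the grey band their interquartile range, below which 6 genes lay for each mark. Counts are not adjusted for the number of genes nearby.

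Of the 5 genes with neither mark at any transcript start, 4 had starts rich in G and C. In the 501 bases around the canonical start, the content was 81.8% at TGFBR1, 79.0% at SMAD2, 78.6% at TGFB1 and 71.1% at SMAD4. With the protein-coding starts ranked by content and divided into 10 equal groups, TGFBR1, SMAD2 and TGFB1 fell in the highest group, in which 60.4% had H3K4me3 and 34.5% had H3K27ac within 1 kb. SMAD4 fell in a group with 61.3% and 39.5%. SKI, at 89.8%, had the highest content of all protein-coding starts, and had no H3K4me3 peak within 1 kb. The other unmarked gene, SMAD7, had the lowest content of the 10 genes, 56.9%, in a group where 27.3% had H3K4me3 and 18% had H3K27ac. These groups were not adjusted for chromosome or region. SMAD2, SMAD4 and SMAD7 lie on chromosome 18, where 10.9% of outer starts had H3K4me3 and 6.02% had H3K27ac. Around TGFB1, none of 66 other outer starts within 1 Mb had either mark.

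Most peaks of the 10 genes were far from the outer starts of genes. Of the 73 H3K27ac peaks, 66 (90.4%, 81.2 to 96.1) lay more than 3 kb from the outer start of any protein-coding gene, against 69.5% of the whole list, and without SMAD3 the share was 84.2% (68.7 to 94.0). Counted from every annotated transcript start the share was 67.1% (55.1 to 77.7), against 53.9% of the list, and without SMAD3 it was 68.4% (51.3 to 82.5). Of the 28 H3K4me3 peaks, 21 (75.0%, 55.1 to 89.3) lay that far, against 39.8% of the list, and without SMAD3 the share was 57.1% (28.9 to 82.3). Counted from every transcript start it was 46.4% (27.5 to 66.1), against 26.5%, and without SMAD3 28.6% (8.39 to 58.1).

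Overlap is mutual, with 15 H3K27ac and 16 H3K4me3 peaks involved, so the share was larger for H3K4me3, which had fewer peaks. Each share is therefore set beside that of its own list. Of the H3K27ac peaks, 20.5% overlapped H3K4me3 (12 to 31.6), against 24% of the list, and 13.2% did without SMAD3 (4.41 to 28.1). Of the H3K4me3 peaks, 57.1% overlapped H3K27ac (37.2 to 75.5), against 31.1%. SMAD3 provided 10 of the 16 overlapping H3K4me3 peaks, and without it 6 of 14 overlapped (42.9%, 17.7 to 71.1). The H3K4me3 peaks were weak for their list. Of the 28, 7 were at or above the list median and none reached a −log10 q of 5, which allows a share of up to 12.3%, against 16.7% of the list. Without SMAD3, none of 14 reached 5, which allows up to 23.2% and so includes the share of the list. Of the 73 H3K27ac peaks, 38 were at or above their list median and 9.59% reached 5, against 8.84% of the list. Without SMAD3, 2 of 38 (5.26%, 0.644 to 17.7) reached 5.

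Short motifs linked to SMAD and AP-1 proteins were searched as letters in the 300 bases around each peak centre. For AP-1, a partner of SMAD complexes at many enhancers, the letters were TGANTCA with any base allowed at N. This form reads the same on both strands. It occurred in 2 of the 73 H3K27ac windows (2.74%, 0.334 to 9.55), against 5.03% of all H3K27ac windows, and in none of the 28 H3K4me3 windows, against 3.75%. CAGACA, the core of the SMAD-binding CAGA box, occurred on either strand in 14 of the 73 (19.2%, 10.9 to 30.1) against 19.6%, and in 9 of the 28 (32.1%, 15.9 to 52.4) against 16.7%, with 7 of those 9 at SMAD3. The SMAD palindrome GTCTAGAC occurred in none of the 73 or the 28 windows, against 0.0955% of H3K27ac and 0.183% of H3K4me3 windows.

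An AP-1 match was found in the strong intron 1 peak of SMAD3 at chr15:67413526-67413825, which is printed on the plus strand of GRCh37 with the match in capitals. The other, with the letters TGATTCA, was in the weak peak upstream of SKIL.
SMAD3 intron 1: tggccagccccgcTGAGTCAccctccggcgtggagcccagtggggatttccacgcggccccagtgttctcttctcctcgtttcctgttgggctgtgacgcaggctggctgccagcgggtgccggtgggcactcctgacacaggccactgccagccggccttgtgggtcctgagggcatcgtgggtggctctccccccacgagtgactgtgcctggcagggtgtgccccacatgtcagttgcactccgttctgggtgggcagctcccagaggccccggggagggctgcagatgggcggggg
The match begins at base 14 of the window. The window was rich in G and C (69.0%), and its peak had a −log10 q of 5.12 and no overlapping H3K4me3.

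The rest of the pathway was described with a list of 80 genes. At the outer start, 34 had H3K4me3 (42.5%, 31.5 to 54.1) against 38.2% of all protein-coding genes, and 16 had H3K27ac (20%, 11.9 to 30.4) against 23.6%. Both marks were found at 12 of the 80 starts, against 18.6% of all protein-coding genes. Neither was found at 42, for which no share over all genes was computed. Of 15 ligands, 5 had H3K4me3 and 1 had H3K27ac, and BMP4, BMP7, GDF11 and GDF15 were among the 9 with neither. Of 12 receptors, 3 had H3K4me3 and 1 had H3K27ac. The activin receptor ACVR1B was the receptor with both marks, and ACVR1, ACVR2B, ACVRL1 and AMHR2 were among the 9 with neither. At the outer start, the intervals of these shares included the value over all genes.

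Of 12 extracellular modulators of the pathway, 8 had H3K4me3 (66.7%, 34.9 to 90.1), and ITGB8, LTBP2 and LTBP3 had both marks, while DCN, ITGB6, LRRC32 and LTBP4 had neither. Of 17 known targets, 10 had H3K4me3 (58.8%, 32.9 to 81.6). HMGA2, JUNB, KLF10 and TGFBI had both, and ANGPTL4, CDKN1A, CDKN2B and COL1A1 were among the 7 with neither. Of 4 other SMADs and adaptors, SMAD5 had both marks and SMAD9 had neither. Of 10 inhibitors and ubiquitin ligases, 3 had H3K4me3 and 3 had H3K27ac. SMURF2 and TRIM33 had both, and BAMBI, NEDD4L, PMEPA1 and PPM1A were among the 6 with neither. Of 10 nuclear partners, 2 had H3K4me3 and 3 had H3K27ac. The acetyltransferase gene CREBBP had both, and EP300, NCOR1, RUNX1 and RUNX2 were among the 6 with neither. Of the genes named here as having neither mark at the outer start, BMP4, GDF11, GDF15, ACVR1, ACVR2B, PMEPA1, PPM1A, NCOR1, RUNX1, RUNX2, CDKN1A and COL1A1 had H3K4me3 within 1 kb of another transcript start. With any transcript start counted, H3K4me3 was found at 49 of the 80 genes (61.2%, against 45.4% of all protein-coding genes) and H3K27ac at 25 (31.2%, against 30.7%). Among ligands the H3K4me3 count was then 8 of 15, and among receptors 6 of 12. No interval was computed for shares at any transcript start. The intervals that include the value over all genes are those of the outer start, where the H3K4me3 share was closer to that of all genes.

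**Figure D5:**
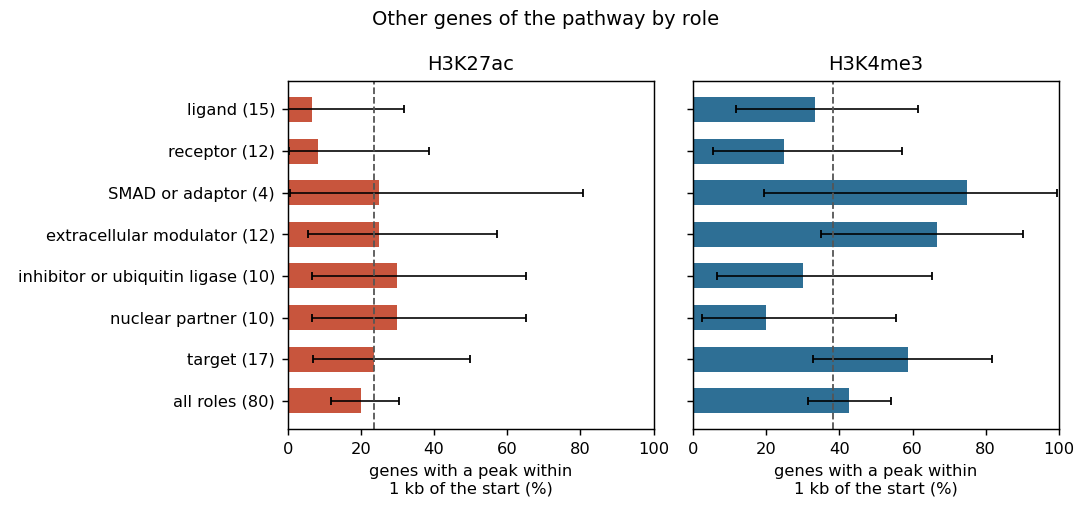
Percent of genes with a peak within 1 kb of the outer start, for H3K27ac (left) and H3K4me3 (right), by role among the 80 other pathway genes, with the number of genes in brackets. Whiskers are exact Clopper-Pearson 95% intervals and the dashed line is the percent of all protein-coding genes (23.6 and 38.2), which lies within every interval shown.

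By peaks over the gene, the transcription factor gene RUNX1 had the most H3K27ac of the 80 genes, 17 over 1216868 bp. The latent TGF-β binding protein gene LTBP2 had 12 over 114196 bp. LTBP3, of the same family, had 9 over 20372 bp, and TGFBI, an extracellular matrix gene, had 9 over 34831 bp. SMAD3 exceeded each of them with 32, at 2.44 peaks per 10 kb against 0.140 at RUNX1, 1.05 at LTBP2, 4.42 at LTBP3 and 2.58 at TGFBI. For H3K4me3, RUNX1 had 6 peaks over the gene, LTBP3 had 5 and BMP4 had 4, against 14 at SMAD3. Per 10 kb of gene, BMP4 had 4.43 and LTBP3 2.45, both above SMAD3 with 1.07, and RUNX1 had 0.0493.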

How the data were processed

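ChIP-seq peak lists of 2 histone marks in H2087 cells were analysed, with 1 library per mark (n = 1). The submitters' processing notes name Bowtie 1.1.1, SAMtools 1.2, Picard 1.118 and MACS2 2.1.0, with build hg19. In the study's methods, input chromatin was kept for normalization. The peak-calling threshold, and whether the input was the control in peak calling, are not given in the sources used here. The deposited score column has no header, and its values were read as −log10 q from the numbers alone, the lowest being 1.303 and 1.306 against 1.301 for a q of 0.05. Such values grow with depth, which is unknown here, and with local copy number.

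Repeated intervals were reduced to 1 peak with the highest value and assigned to genes of GENCODE 44 mapped to the same build. Overlap required at least 1 bp, and positions are 1-based. Shares were computed with Python 3.11.15 and scipy 1.17.1, and counting was tested on simulated data. The 10 genes, the list of 80 pathway genes and the marker genes were chosen with earlier results of these data known. Named genes were the 10 with their strongest, widest and start-nearest peaks, the nearest neighbouring starts, the 3 pathway genes per mark with most peaks over the gene, and up to 4 genes per role with both marks or neither, in alphabetical order. Alternatives changed peak strength, merging, window, gene start and overlap rule.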

Additional observations from a re-analysis of the deposited data

How the results depend on the processing

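Of 59 alternative values for 12 results, 33 stayed within 1.5 times the reported count or within the 95% interval of the reported share, and 26 did not. Of the 59, 9 were chosen after seeing the data, those with the canonical start or without SMAD3. With peaks at or above the list median, H3K27ac peaks within 50 kb fell from 73 to 38 and over the gene from 53 to 28, H3K4me3 peaks from 28 to 7 and from 19 to 5, and pathway starts from 16 to 10 for H3K27ac and from 34 to 21 for H3K4me3. With a −log10 q of at least 5, the same counts were 7, 6, 0, 0, 2 and 13, and the number of the 10 genes marked at the start was 0 for each mark. Only 8.84% of all H3K27ac and 16.7% of all H3K4me3 peaks reached that value. The share of all genes marked at the start was not computed for either cut-off. Without SMAD3, 38 H3K27ac and 14 H3K4me3 peaks remained within 50 kb. Within 3 kb of the outer start, or at any transcript start, 4 of the 10 genes and 25 of the 80 pathway genes had H3K27ac in place of 2 and 16. The share of all protein-coding genes was 30.7% at any transcript start, and was not computed within 3 kb. With a reciprocal overlap of 50% of length, 11.0% of the H3K27ac and 28.6% of the H3K4me3 peaks were shared, and with both lists at or above their medians 5.26% and 28.6%. The share of H3K27ac peaks over 3 kb from a start was 67.1% with every transcript and 79.5% with all genes, in place of 90.4%. The share of AP-1 windows was 1.37% with shorter windows and 4.11% with longer ones, within the interval of the reported 2.74%. No paired analysis was possible because the marks had 1 library each. Depth is unknown, so the absence of peaks at SMAD2, SMAD4, TGFBR1 and TGFB1 is an absence from these lists.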
